A study of Mus musculus with 2 samples.

Results

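The locus of Myc and its distant blood enhancers was examined in maps of histone H3 acetylated at lysine 27 (H3K27ac), which is found at promoters and enhancers in use. The region is a stretch of 2.5 Mb of mouse chromosome 15 (chr15:61500001-64000000, mm10), chosen by position alone. It held 32 of the 34272 peaks compared in Gata2 f/f cells and 37 of the 37234 in Gata2 KO cells, a peak being counted when it had at least 1 base in the region. The cells are MA9 leukaemia cells, mouse myeloid leukaemia cells that carry the MLL-AF9 fusion, taken from bone marrow. One library (n = 1) is Gata2 f/f, with floxed Gata2, and the other (n = 1) is Gata2 -/-, labelled KO. Per the labels, cells received Cre or a control vector (MIT), were sorted for GFP and tdTomato, and stayed in culture with IL-3, IL-6 and SCF for 7 to 9 days before ChIP. With 1 library per genotype there is no replicate check and no test, and each difference given here is one between these libraries.

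Facts of the libraries that bear on the locus are few. Read depth is unknown. The median -log10 p of a peak, the authors' own value, was 12.2 for f/f peaks and 9.41 for KO peaks. Heights are therefore ranked only within a list, but some alternatives below apply the same fold enrichment or -log10 q cut to both lists. Such a cut keeps unequal shares of the lists. A gene-end peak was called at Xist in f/f alone, and at Eif2s3y, Uty and Kdm5d of the Y chromosome in KO alone, while Ddx3y, also Y-linked, had none in either list, so that genotype and this difference in sex-chromosome marks cannot be told apart. Chromosome 15 was called from its start in both, with a first peak at 3233536 in f/f and at 3233707 in KO. Of 7 marker genes of myeloid leukaemia, Ptprc, Spi1, Cebpa and Itgam had a gene-end peak in both lists, and Mpo, Hoxa9 and Meis1 had one in f/f with a KO peak within 5 kb. Of 12 markers of B, T, erythroid and stromal cells, Cd79a, Cd4 and Klf1 had a gene-end peak in both lists, Cxcl12 in KO alone, and 8 in neither. A gene-end peak lies within 1 kb of either end of a gene, strand not used, so it need not be at that gene's promoter. Cd8a had no covered base within 25 kb in either library.

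MYC is a transcription factor that binds DNA as a dimer with MAX and drives growth, ribosome making and cell division. Its gene lies in a gene-poor stretch of chromosome, and much of its control comes from enhancers that loop to the promoter over long distances, with different enhancers used in different tissues. Next to it lies Pvt1, a long noncoding RNA gene whose promoter competes with that of Myc for enhancers and whose introns hold enhancers of their own. In blood stem cells and in MLL-AF9 leukaemia, Myc depends on a cluster of enhancers far downstream, beyond the gene desert and before the Gsdmc genes, which is bound by many blood transcription factors and depends on the SWI/SNF remodeller. Between Pvt1 and that cluster lies another distant enhancer, bound by NOTCH in T cell leukaemia.

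The promoter sequence of 1 gene inside the distant cluster is shown because it is the one annotated transcription start there with a sequence in the reference table. The gene is 4930449C09Rik, a long noncoding RNA gene. The sequence is from RefSeq (GRCm38.p6, the same build as mm10), chr15:63718098-63718397, plus strand, 250 bases before to 50 after the start. Capitals mark the ETS-type motif AGGAAGTG, which starts at position 169, counted from 1 at the 5′ end.

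4930449C09Rik: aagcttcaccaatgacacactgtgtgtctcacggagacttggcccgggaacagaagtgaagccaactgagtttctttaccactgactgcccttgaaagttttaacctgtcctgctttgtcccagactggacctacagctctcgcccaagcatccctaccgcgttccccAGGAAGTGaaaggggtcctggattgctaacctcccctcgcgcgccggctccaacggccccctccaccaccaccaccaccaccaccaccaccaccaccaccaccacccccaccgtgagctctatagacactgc

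No peak of either list reached this window. The nearest KO peak lay 1.015 kb away and the nearest f/f peak 1.47 kb away, both inside the gene. The motif AGGAAGTG was looked for after the sequence had been read, on both strands, and is present in 4.07% of 32851 promoter windows of this length. The GATA motifs AGATAA (11.2% of promoter windows) and TGATAA (9.05%), the E-box CACGTG (7.15%), the ETS motif CCGGAAGT (3.89%), TATAAA (13.6%) and the GC box GGGCGG (35.7%) were searched on both strands and had no match in it. A match or its absence says nothing of binding.

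The distant cluster held most of the bases under peaks in the region in both libraries. Of the 2500 kb, f/f peaks covered 56.9 kb (2.28%) and KO peaks 51.6 kb (2.07%), which gives a KO to f/f ratio of 0.907. Outside the region, chromosome 15 had a ratio of 1.04, and all chromosomes together 1.05. The ratio was also taken in 946 consecutive windows of the same length over the genome, those with peaks in both lists. It had a median of 1.03 and quartiles of 0.911 and 1.15, so that the region lay just below the lower quartile. The stretch from 1.5 to 1.8 Mb downstream of the start of Myc makes up 12.0% of the region's length. It held 61.8% of the covered bases of the region in f/f and 57.2% in KO. The base-by-base agreement of the lists in the region was like that of the genome: bases under peaks of both made up 58.3% of bases under peaks of either, against 58.6% over all chromosomes.

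**Figure D1:**
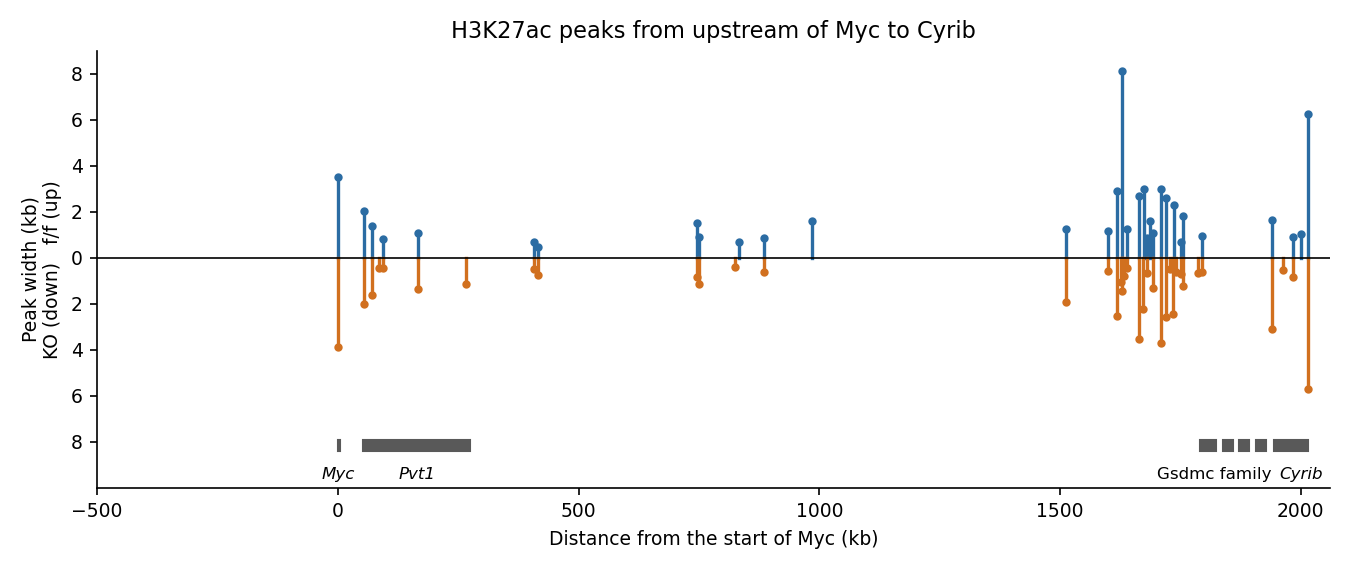
Peaks of the region by distance from the start of Myc (kb, horizontal axis), each drawn as a line whose length is the peak's width (kb), upward for Gata2 f/f (blue) and downward for Gata2 KO (orange); grey bars are genes, Cyrib being cut at the end of the region. Both lists have no peak before Myc and few over the gene desert, none wider than 1578 bp. Both have a dense group beyond 1600 kb, where the widest f/f peak (8106 bp) stands.

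Upstream of Myc neither list had a peak. The blank stretch ran for 484.3 kb from the start of the region to the peak at the gene. It holds the noncoding gene D030024E09Rik and the pseudogenes Gm18154 and Gm18788, which were all uncovered.

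Myc itself (chr15:61985341-61990361) carried 1 wide peak in each library, over its promoter and the first part of the gene. In f/f the peak ran from 61984253 to 61987755 (3503 bp) and in KO from 61984309 to 61988203 (3895 bp). The peak starts 56 bp later in KO and ends 448 bp later, so that 57.0% of the gene was covered in KO and 48.1% in f/f. Both peaks were among the widest of their lists, wider than 98.0% of f/f peaks and 98.9% of KO peaks. In strength they were only moderately high, with a -log10 p of 23.8 (percentile 66.8 of the f/f list) and 15.8 (percentile 65.0 of the KO list). Over Myc and 25 kb on both sides, f/f peaks covered 6.37% of bases and KO peaks 7.08%, and the 0.71 points between them come from the extent of this one peak. Myc thus had a promoter peak in both libraries, longer on the gene side in KO. Whether depth, calling or acetylation accounts for such differences in extent was not tested.

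Pvt1 (chr15:62037986-62260215) had a strong peak at its start and lower ones further inside the gene. The peak at the start lay 53.2 kb from the start of Myc and was 2020 bp wide in f/f and 2021 bp in KO, with both edges moved by 71 to 72 bp. Its -log10 p was 40.0 (percentile 76.7) in f/f and 18.5 (percentile 69.0) in KO, a higher place in each list than the Myc peak. Inside the gene, 3 further sites were shared, at about 71, 94 and 167 kb from Myc. Their widths were 1361, 822 and 1086 bp in f/f and 1614, 430 and 1354 bp in KO. The KO list had 2 more peaks there without an f/f partner, at 62069806 to 62070251 (446 bp, -log10 p 2.93) and at 62251792 to 62252932 (1141 bp, -log10 p 4.40), near the far end of the gene. Both are weak calls, at percentiles 0.685 and 18.8 of the KO list. From 2 kb beyond Myc to 2 kb beyond Pvt1, f/f peaks covered 5.29 kb and KO peaks 7.01 kb (ratio 1.32). With peaks under 3-fold enrichment left out, the order was the opposite, with a ratio of 0.687. That cut kept 23036 of 34272 f/f peaks but 19919 of 37234 KO peaks over the lists, and no ratio over the genome at it is given here.

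The gene desert beyond Pvt1 was nearly blank. Over 1223 kb it held 7 f/f and 6 KO peaks, none at or above its list's median -log10 p. Pairs of peaks stood about 407.5 and 415.9 kb, and 745.5 and 749.9 kb, from Myc in both lists, and a further shared peak 885.9 kb away. The widest f/f peaks here were those at 62969909 to 62971486 (1578 bp), 62730087 to 62731593 (1507 bp) and 62734783 to 62735698 (916 bp). The widest KO peaks were 1135, 830 and 727 bp wide. Peaks without a partner were those of f/f at 62818596 to 62819280 (685 bp, -log10 p 3.94) and at 62969909 (-log10 p 5.08), and that of KO at 62809119 to 62809507 (389 bp, -log10 p 3.83). The last stands 9.09 kb from an f/f peak, so that the lists place a weak peak near but not at the same position. Covered bases came to 6.71 kb in f/f and 4.15 kb in KO. From 62971487 to 63497055, a stretch of 525.6 kb between the desert peaks and the distant cluster, neither list had a peak, and the noncoding genes Gm41334, Gm30159, Gm41335 and Gm20740 in it were uncovered.

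The distant cluster began after that blank stretch, and its peaks were dense in both libraries. From 1.5 to 1.8 Mb downstream of Myc, 16 f/f peaks covered 35.2 kb and 20 KO peaks covered 29.5 kb, or 11.7% and 9.85% of bases. Among 4805 consecutive windows of 300 kb over the genome with peaks in both lists, the median covered length was 7.58 kb in f/f and 7.66 kb in KO. Only 29 of those windows (0.604%) had more covered bases than the cluster in f/f, and 152 (3.16%) in KO. The stretch was placed on a cluster known beforehand, while the compared windows lay at fixed steps, so this rank is no test of the cluster. Among the 10 f/f peaks with the highest -log10 p in the region, 7 lay here, as did 7 of the 10 KO peaks, and 9 of the 10 f/f peaks overlapped one of the 10 KO peaks. Fold enrichment was not high, with a median of 2.95 in f/f and 2.51 in KO, each below its list's own median of 3.51 and 3.09. An f/f peak was 1693 bp wide at the median, above the 1207 bp of its list, and a KO peak 1151 bp, near the 1166 bp of its list. The cluster thus stood out by covered length and not by fold.

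The strongest peak of the region by -log10 p was the same one in both lists. It lay 1719 kb from Myc, at 63703200 to 63705798 in f/f and at 63703166 to 63705754 in KO, 2599 and 2589 bp wide, at percentiles 81.2 and 81.7 of the lists. Its edges differed by 34 and 44 bp. Next in the KO list came the peak 1618 kb from Myc (63602108 to 63604651, -log10 p 24.9) and the one at 1673 kb (63657161 to 63659367, 23.9), which were ranked 4 and 3 in f/f (-log10 p 42.9 and 45.3). Both of the latter were narrower in KO, at 2544 against 2920 bp and 2207 against 2993 bp. Other peaks were wider in KO, namely the one at 1663 kb from Myc (3537 against 2671 bp), at 1709 kb (3700 against 2971 bp) and at 1694 kb (1312 against 1089 bp). At the first edge of the cluster, the peak 1512 kb from Myc was 1231 bp wide in f/f and 1921 bp in KO.

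The main difference between the libraries lay at 1628 kb from Myc. There f/f had 1 peak of 8106 bp, from 63609227 to 63617332, wider than nearly every other peak of its list. The KO list had 3 separate peaks under it, at 63610752 to 63611806 (1055 bp), 63613533 to 63614976 (1444 bp) and 63616581 to 63617377 (797 bp), which together cover 3.30 kb. Both lists thus called acetylation across the site, in 1 stretch or in pieces. These are calls of low fold, 1.81 in f/f and 1.61 to 1.82 in KO, with a -log10 p of 13.2 in f/f (percentile 52.3) and of 4.88 to 9.20 in KO. The site accounts for -4.81 kb of the KO minus f/f difference of -5.62 kb in the distant cluster and of -5.27 kb in the whole region. Without it, as an alternative chosen after the values were seen, f/f peaks covered 27.1 kb of the cluster and KO peaks 26.2 kb, a ratio of 0.970 in place of 0.840, and the whole region 0.991 in place of 0.907. The number of 300 kb windows with more covered bases than the cluster then rises to 167 in f/f and 260 in KO. The compared windows were left whole, so that this number could not fall.

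**Figure D2:**
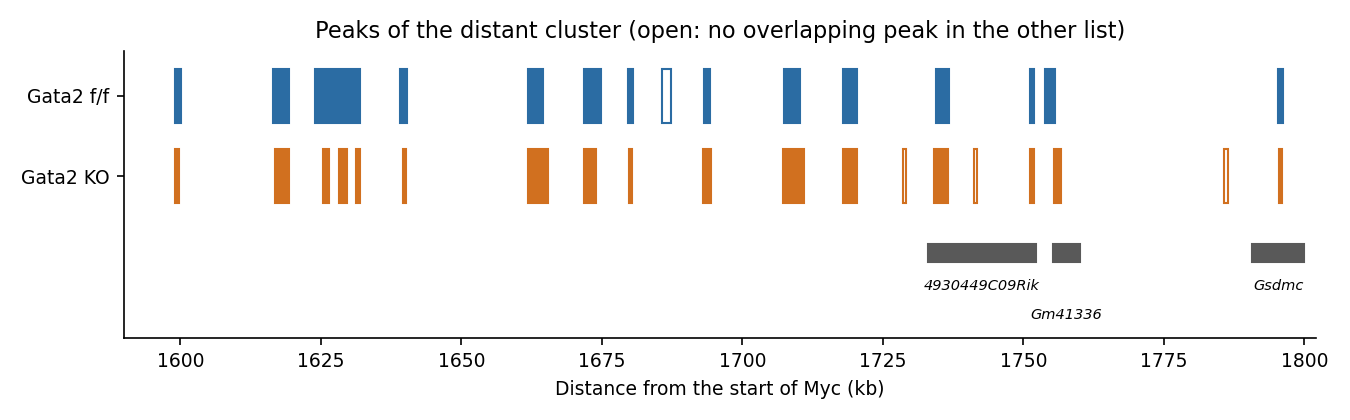
Peaks of the distant cluster drawn to scale by distance from the start of Myc (kb), 1 row per library, filled where a peak overlaps one of the other list and open where it does not; grey bars are annotated genes. The filled peaks lie at matching places in both rows, 1 f/f and 3 KO peaks are open, and the f/f peak of 8106 bp at 1628 kb stands above 3 separate KO peaks; the peak at 1512 kb is not drawn.

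Several smaller shared peaks of the cluster were narrower in KO. At 1600 kb from Myc the peak was 1163 bp wide in f/f and 579 bp in KO, at 1640 kb 1260 and 431 bp, and at 1680 kb 863 and 661 bp. The last stood at percentile 63.6 of the f/f list and 36.0 of the KO list; places in lists of unequal length are no measure of change. At the noncoding gene 4930449C09Rik, the peak at 1736 kb was 2281 bp wide in f/f and 2453 bp in KO, and the one near its far end 696 and 715 bp. At Gm41336, another noncoding gene, a weak f/f peak of 1807 bp and a weak KO peak of 1247 bp shared 291 bp. Within Gsdmc, a gasdermin gene, each list had a weak peak, 930 bp wide for f/f and 609 bp for KO. Calls without a partner were few and weak in the cluster. They were 1 f/f peak at 63670988 to 63672566 (1579 bp, -log10 p 3.51, percentile 4.33) and 3 KO peaks, at 63713943 to 63714414 (472 bp, 3.86), at 63726485 to 63727092 (608 bp, 3.68) and at 63771011 to 63771664 (654 bp, 3.78).

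Stitched within 12 kb, the peaks of both lists formed 21 clusters in the region, of which 4 had at least 5 kb covered on average over the libraries. Of these 4, the one from 63601773 to 63625725 was less covered in KO by at least 1.5-fold, with 12.3 kb under f/f peaks and 6.27 kb under KO peaks (ratio 0.510). It contains the site at 1628 kb. The neighbouring clusters had ratios of 0.839 (63647137 to 63679694, 9.20 and 7.72 kb) and 1.14 (63692601 to 63741980, 10.3 and 11.8 kb), and the one at Cyrib, which runs past the region, 1.06. These 3 clusters of the distant stretch thus differed in direction. Over the genome, 4.77% of 1844 such clusters were less covered in KO by this margin and 9.54% more covered, with a median ratio of 1.06.

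**Figure D3:**
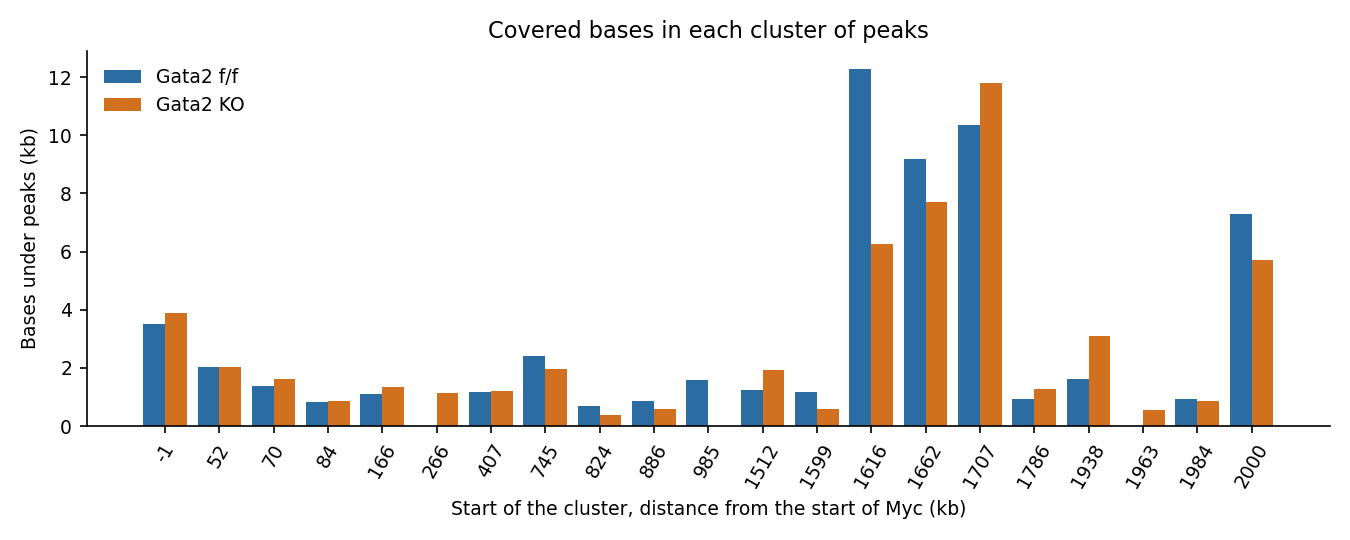
Bases under peaks (kb, vertical axis) in each of the 21 clusters of the region, ordered by the distance of their start from the start of Myc (kb), in Gata2 f/f (blue) and Gata2 KO (orange), 1 library each. The 3 tallest pairs, from 1616 to 1707 kb, lie in the distant cluster, and the first of them has 12.3 kb in f/f and 6.27 kb in KO; the last pair counts only peaks with a base in the region, a part of the larger cluster at Cyrib.

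Beyond 1.8 Mb the region was blank over Gsdmc2, Gsdmc3 and Gsdmc4 and marked again at Cyrib, a regulator of the actin cytoskeleton. A shared peak at the end of the pseudogene Gsdmcl-ps was 1629 bp wide in f/f (63923951 to 63925579) and 3087 bp in KO (63923341 to 63926427), the largest widening among the shared peaks of the region. Inside Cyrib, the peak that crosses the end of the region was 6264 bp wide in f/f and 5696 bp in KO, and one at 1984 kb from Myc 917 and 848 bp. Without a partner were an f/f peak at 63985104 to 63986117 (-log10 p 7.19) and a KO peak at 63948797 to 63949334 (-log10 p 4.20). The ratio of covered bases here was 1.13 over all peaks and 0.485, the opposite order, once peaks under a -log10 q of 5 were left out. That cut kept 23524 of 34272 f/f peaks but 22459 of 37234 KO peaks over the lists, and no ratio over the genome at it is given here.

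Over the whole region, 4 of 32 f/f peaks (12.5%, exact binomial 95% interval 3.51 to 29.0, counting error only) had no overlapping KO peak, against 16.2% over all f/f peaks. Of 37 KO peaks, 7 (18.9%, interval 7.96 to 35.2) had no overlapping f/f peak, against 22.6% over all KO peaks. Every one of these 11 peaks lay below its list's median -log10 p. Below that median the share was 4 of 20 in f/f and 7 of 25 in KO, against 29.9% and 40.9% over the lists. At or above it, 0 of 12 peaks stood alone in f/f and 0 of 12 in KO, against 2.52% and 4.23% over the lists, and with so few peaks a share of up to 26.5% is within the interval. No peak above its list's median was therefore found in 1 library alone, and over all peaks the shares lie near the background of the lists. The order of the lists turned once peaks under 3-fold enrichment were left out. There 9 of 15 f/f peaks (interval 32.3% to 83.7%) had no overlapping KO peak of that enrichment, against 27.6% over the f/f list, and 1 of 7 KO peaks (14.3%, interval 0.361 to 57.9), against 16.3% over the KO list. Of those f/f peaks only the one at 63985104 had no KO peak at all, and the others overlapped KO peaks of lower fold. With a minimum -log10 q of 5 the order also turned, with 5 of 19 f/f peaks (26.3%) and 2 of 16 KO peaks (12.5%), where the lists had 18.7% and 14.7%. Here too, only the f/f peak at 63985104 had no peak at all in the other list. The other f/f peaks and both KO peaks overlapped peaks below that minimum.

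Of the shared peaks, 27 overlapped exactly 1 partner and could be compared in width. In KO 14 were narrower and 13 wider, with a median KO to f/f width ratio of 0.996. Over all chromosomes 52.2% of 28349 such pairs were narrower in KO, and the median ratio was 0.991. Changes of at least 1.5-fold were found in 5 pairs narrower in KO and 3 wider, 18.5% and 11.1%, against 9.94% and 10.3% over the genome. The peaks at 1640 kb (0.342), 1600 kb (0.498) and 94 kb (0.523) from Myc had the lowest ratios. The edges of the pairs moved by a median of 117 bp on the side toward Myc and 283 bp on the far side, against 93 and 92 bp over the genome.

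**Figure D4:**
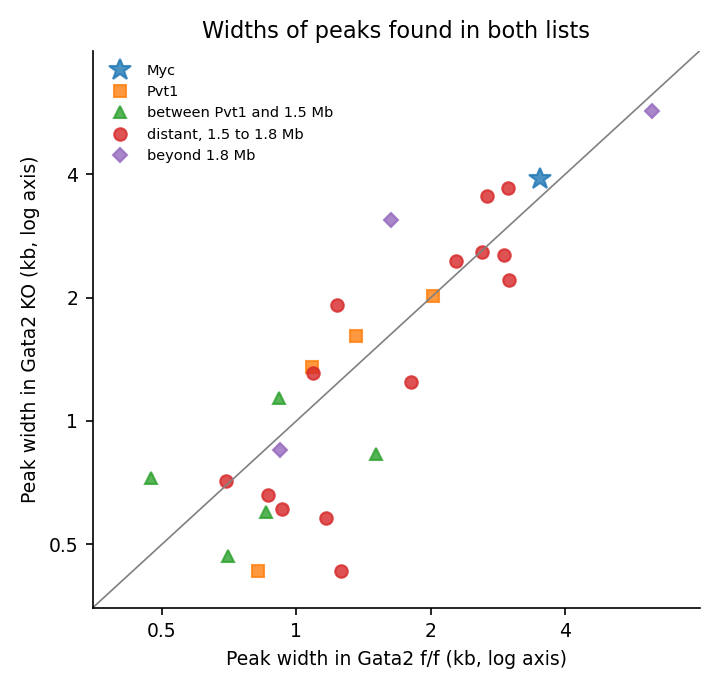
Width in Gata2 f/f (kb, horizontal log axis) and in Gata2 KO (kb, vertical log axis) of the 27 peaks of the region that overlap exactly 1 peak of the other list, marked by their place along the region, with the line of equal width. The points lie on both sides of the line, 14 below and 13 above, and the peak at Myc (star) lies just above it.

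Genes that work with MYC were then read at their own loci, from 5 lists chosen for this purpose with 69 genes, all found in the gene table. A gene-end peak in both lists was present at 60 of the 69 (87.0%), against 47.6% of 21887 protein-coding genes. Those 21887 include 10283 with no gene-end peak in either list. The 5 lists were chosen with earlier results known, so that no trait of the MYC network is read from these shares. Of the 69, 7 had no gene-end peak in either list, and Rad21 had one in f/f with a KO peak within 5 kb. One gene had such a peak in f/f alone and none in KO alone, where the shares over all genes were 1.83% and 1.6%. Coverage of the gene and its 25 kb flanks was lower in KO for 29 of the 69 and higher for 39, against 45.5% lower among all 16306 protein-coding genes with a base covered. The median difference was 0.25 points, against 0.10 points over those genes. Some of the 69 loci share flank bases, among them Ldb1 with Nolc1 and Brd3 with Wdr5, so they are not all separate.

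Among the dimer partners and rivals of MYC, 13 genes with Myc counted, the gene in f/f alone was Mycl, the MYC relative first found in lung cancer. Its f/f peak (chr4:122995671-122996563, 893 bp, -log10 p 5.29) is a weak call that overlies the promoter window of the gene, and the nearest KO peak stood 11.7 kb from that window. Locus coverage of Mycl was 5.67% in f/f and 2.62% in KO. The promoter is printed as the network promoter that 1 list alone marked, from RefSeq (GRCm38.p6), chr4:122995681-122995980, plus strand. Capitals mark the GC box GGGCGG at position 167 and TATAAA at position 243.

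Mycl: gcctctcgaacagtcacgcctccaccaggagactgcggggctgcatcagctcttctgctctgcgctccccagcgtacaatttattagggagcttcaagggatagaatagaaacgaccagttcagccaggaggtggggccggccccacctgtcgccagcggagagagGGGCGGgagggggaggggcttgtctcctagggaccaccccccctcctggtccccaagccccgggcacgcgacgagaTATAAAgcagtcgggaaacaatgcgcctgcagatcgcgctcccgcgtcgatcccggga

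Mycn, the third MYC gene, had no covered base in either library. Of the MAX partners that oppose MYC, Mxd3 had 6.31% of its locus covered in f/f and 15.8% in KO, and Mxd1 8.77% and 13.5%, the largest differences toward KO in this list. At Mxd3 the gene-end peak was 1707 bp wide in f/f (55329268 to 55330974 on chromosome 13) and 4007 bp in KO (55326794 to 55330800), which overlaps it. Another peak near the gene was narrower in KO, at 1592 against 1748 bp. These peaks make up only part of the KO coverage of Mxd3, the rest of which lies elsewhere in the 25 kb flanks. Max was covered at 3.38% and 6.37%. After Mycl, the largest difference toward f/f was at Mlx, the MAX-like factor, at 15.3% and 13.3%. The list had 5 genes lower and 7 higher in KO with a median of 0.47 points, which became -0.05 once peaks under a -log10 q of 5 were left out.

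Among 15 genes of acetylation readers, writers and remodellers, 12 were covered more in KO and 3 less. That is 20.0% lower in KO, against 45.5% of protein-coding genes with a base covered. The median difference was 0.53 points, and no gene had a gene-end peak in 1 list alone. Hdac3, a histone deacetylase, had 12.8% covered by f/f and 15.8% by KO peaks, and Cdk9, a kinase of transcription elongation, 10.4% and 13.1%. Smarcb1, a SWI/SNF subunit, had 5.84% and 2.93%, and Smarcd2, another subunit with no gene-end peak in either library, 0.77% and 0. Smarca4, the SWI/SNF motor, had 6.60% and 8.33%. The median of the list was 0.09 points with a -log10 q of at least 5, so that the size depends on the threshold.

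Of 8 genes for architectural proteins of enhancer loops, 5 were lower and 3 higher in KO, with a median of -0.04 points that moved to between -0.256 and -0.151 under other flanks and peak thresholds. The largest differences were at Yy1 (16.9% in f/f and 11.7% in KO), a zinc finger factor of promoter and enhancer contacts, and Nipbl (8.71% and 4.69%), the cohesin loader. The cohesin ring gene Smc3 (2.63% and 4.26%) and Ldb1 (6.72% and 7.79%), a looping cofactor of GATA complexes, had the largest toward KO. Nipbl and Ldb1 had no gene-end peak in either library, so their coverage lies elsewhere in the gene or its flanks. The flanks of Ldb1 share bases with those of Nolc1, a gene of another list.

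Of 13 genes of MYC turnover and activity, 5 were lower and 8 higher in KO. Their median of 0.13 points turned to -0.01 both with 50 kb flanks and under a minimum -log10 q of 5. Wdr5 (10.9% and 14.4%), a chromatin partner of MYC, was covered more in KO, and Ruvbl1 (6.41% and 5.02%) and Gsk3b (4.35% and 3.39%), the kinase that marks MYC for decay, less. The 20 target genes of growth and ribosome making went both ways, 11 lower and 9 higher, with a median of -0.17 points that turned to 0.20 with 10 kb flanks and 0.41 with 50 kb flanks. The nucleolar genes Nolc1 (8.0% and 11.5%) and Polr1b (5.09% and 7.96%) had the largest differences toward KO, and the cyclin gene Ccnd2 (9.95% and 6.98%) and the chaperone gene Hspd1 (6.12% and 4.89%) toward f/f.

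The protein-coding genes whose locus coverage was most like that of Myc, by the distance between the values of both libraries over 21886 genes, included Cwf19l1 (6.36% in f/f and 7.02% in KO), Rwdd2a (6.38% and 7.02%), Hgsnat (6.32% and 7.02%) and Cldn25-ps (6.44% and 7.09%). Their distances from Myc were 0.0582 to 0.0786 points. With only 2 libraries, likeness in this measure means similar extent of peaks in each and no more.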

How the data were processed

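H3K27ac ChIP-seq peaks of 2 libraries were analysed, grouped by the genotype in the labels. BWA, SAMtools and MACS2 and the build mm10 are named in the submitters' processing notes; their versions and options, any control library and the sequencing depth were not given in the sources used here. Each list comes from 1 library. Its peaks carry a fold enrichment (a ratio), a -log10 p and a -log10 q, all deposited by the authors; the deposited score was not used. A deeper library gives more and wider peaks. Only chromosomes 1 to 19, X and Y were used.

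Coverage is the share of bases under peaks. Overlap needed 1 bp. Gene-end peaks lay within 1 kb of either end, and counted as alone where the nearest peak of the other list was over 5 kb off. Genes and promoters came from RefSeq tables (GRCm38.p6), which give gene ends without strand. Peaks were given to segments by their midpoint. Interval functions were tested on simulated data and against bedtools 2.31.1; intervals came from scipy 1.17.1 under Python 3.11.15.

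Named peaks were all those at Myc and in the distant cluster, and elsewhere the 3 widest per list and those without a partner; named genes were those marked in 1 list alone and the 2 with the largest difference each way per list, with every gene of the region that has a gene-end peak and the 5 genes nearest to Myc in coverage. The genes Max and Smarca4, the 1.5-fold measures, leaving out the 8106 bp peak and the 300 kb windows were chosen after values were seen. Some genes that this rule names are not reported here. Members and lists were chosen with earlier results of these data known. Alternatives were other peak thresholds, overlap rules, stitching gaps, flanks and segment bounds.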

Additional observations from a re-analysis of the deposited data

How the results depend on the processing

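No paired analysis was possible because each genotype has 1 library. The KO to f/f ratio of covered bases was below 1 under every alternative run for the whole region and for the distant cluster. It moved to 0.467 and 0.405 above 3-fold enrichment, and without the 8106 bp f/f peak it was 0.991 and 0.970. The 3-fold cut kept 23036 of 34272 f/f peaks but 19919 of 37234 KO peaks over the lists. No ratio over the genome at that cut is given here, so these lower ratios have no background beside them. Above 3-fold, the Myc to Pvt1 ratio turned to 0.687. Beyond the distant cluster it turned to 0.485 under a minimum -log10 q of 5, and to 0.598 with the strongest 20000 peaks of each list. The minimum q kept 23524 of 34272 f/f peaks but 22459 of 37234 KO peaks, and no ratio over the genome at it is given either. Peaks without a partner numbered 9 of 15 in f/f (27.6% over the list) and 1 of 7 in KO (16.3%) above 3-fold, 2 of 16 in KO under that minimum q (14.7%), 2 of 14 in KO with the strongest 20000 (15.6%), 8 of 32 in f/f when 50% of the peak had to overlap (21.5%), and 8 of 32 in f/f (26.5%) and 13 of 37 in KO (32.3%) with 50% reciprocal overlap, under which the median width ratio turned to 1.01. Stitching within 5 or 25 kb gave 33 or 13 clusters. The Myc locus difference was 1.57 points with 10 kb flanks and 0.374 with 50 kb. Median list differences turned to -0.0476 (dimer network) and -0.00758 (turnover) with a -log10 q of at least 5, to -0.0131 (turnover) with 50 kb flanks, and to 0.204 and 0.413 (targets) with 10 and 50 kb flanks. The causes were not tested. No ratio could be given at Myc above 3-fold, or over the desert under the minimum q or with the strongest 20000, where f/f had no peak left. Without replicates or depth, none of these differences can be set against an error.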

Other observations

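Cyrib, which crosses the end of the region, and Asap1, which lies past it, each had more covered bases than Myc and Pvt1 together. Cyrib (chr15:63929094-64060778) had 9 f/f and 10 KO peaks over 22.0 kb in each library, 16.7% of the gene in both. Asap1, a GTPase-activating protein gene (chr15:64086840-64382941), had 15 f/f peaks over 19.8 kb and 21 KO peaks over 28.5 kb, or 6.69% and 9.61% of the gene. These genes and the distant cluster lie on the same side of Myc, and the peak lists do not say which promoter an enhancer contacts.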
